A study of Homo sapiens with 15 samples.

Results

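Replication-dependent histone genes supply the histones that package newly copied DNA, and the accessible regions around them were followed here in HPAF-II cells, a line from a human pancreatic ductal tumour, with the WNT secretion inhibitor Lgk974 or its solvent DMSO. Members were merged peak regions that lay at most 10 kb from an end of a protein-coding gene whose symbol starts with H1-, H2AC, H2BC, H3C or H4C followed by a number. These were 102 of 222814 regions, next to 72 of 74 such genes: 64 regions on chromosome 6, 12 on chromosome 1 and 26 at other loci. H4C14 on chromosome 1 and H2AC8 on chromosome 6 had no region within 10 kb. The name of the set is broader than its biology, because the rule also takes linker histone genes such as H1-10, H1-7 and H1-8, which lie outside the clusters and are not classed as replication-dependent.

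Accessible chromatin was profiled by ATAC-seq, in which a transposase cuts open DNA and leaves sequencing adapters there. HPAF-II cells received 1 µM Lgk974 for 24 h (4 libraries), DMSO for 24 h (4 libraries), 1 µM Lgk974 for 48 h (3 libraries) or DMSO for 48 h (4 libraries). Lgk974 blocks porcupine, the enzyme that lipidates WNT proteins before secretion, and HPAF-II carries an RNF43 mutation that makes its growth depend on secreted WNT. All 15 libraries come from 1 cell line, and nothing in the labels says whether replicates were separate cultures, so p-values measure the spread between these libraries, which may be technical. Each library has its own list of 53610 to 127886 peaks; a region or gene start is therefore called or not called in a library, and sequencing depth is unknown. The labelled cell type was checked at its markers: the starts of all 10 ductal and epithelial genes, KRT19 and EPCAM among them, had a peak in every library, while those of PTPRC and CD3D of immune cells, PECAM1, VWF and KDR of endothelium and PRSS1, CELA3A and AMY2A of acinar cells had none. The immune genes CD3E, CD14 and LYZ, 3 of 6 listed, and 1 of 6 fibroblast genes, COL1A1, also had a start peak in all 15. COL1A2 of fibroblasts was called in 11 libraries, CPA1 of acinar cells in 2 and CDH5 of endothelium in 1. Of all protein-coding genes, 52.9% had a start peak in all 15 libraries, so such a peak alone is a weak sign of cell type.

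Core histones H2A, H2B, H3 and H4 form the nucleosome and H1 binds the linker DNA between nucleosomes. Their replication-dependent genes are short, lack introns, and lie in clusters in which many H2A and H2B genes share a divergent promoter. They are switched on together in S phase through the coactivator NPAT, a substrate of cyclin E and CDK2, and their messages end in a stem-loop bound by SLBP in place of a poly(A) tail.

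The promoters below show the elements these genes share and 2 contrasts that recur in the data: promoters of the same family with and without a peak, and promoters that exist in identical copies. Each is the RefSeq promoter on GRCh38.p14, 250 bases before the gene start and 50 from it, written 5′ to 3′ on the strand of the gene. Capitals mark words found on either strand. They include the TATA box TATAAA and the CCAAT box. The octamer ATGCAAAT is bound by OCT1, a factor of H2B transcription. The word GGTCCG is the core of the H4 element, bound by HINFP. Overlapping matches run together, and a match is a match of letters only. H2AC15 (chr6:27838326-27838625, minus strand) and H2AC11 (chr6:27132793-27133092, plus strand) had a peak at the start in 15 libraries, and H2AC8 (chr6:26216671-26216970, plus strand) in 0.
H2AC15: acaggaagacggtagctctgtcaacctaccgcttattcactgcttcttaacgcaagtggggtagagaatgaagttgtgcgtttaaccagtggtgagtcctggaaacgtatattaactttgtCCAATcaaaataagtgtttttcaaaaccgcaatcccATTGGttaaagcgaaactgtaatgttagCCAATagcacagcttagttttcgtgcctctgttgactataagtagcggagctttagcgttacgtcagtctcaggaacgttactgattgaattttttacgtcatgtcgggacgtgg
H2AC11: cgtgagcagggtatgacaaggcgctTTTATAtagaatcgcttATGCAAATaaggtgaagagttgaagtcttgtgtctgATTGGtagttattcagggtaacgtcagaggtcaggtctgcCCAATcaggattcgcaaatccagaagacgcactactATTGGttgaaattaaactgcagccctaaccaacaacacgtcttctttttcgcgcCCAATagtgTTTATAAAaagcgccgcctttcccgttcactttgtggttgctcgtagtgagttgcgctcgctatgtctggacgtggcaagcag
H2AC8: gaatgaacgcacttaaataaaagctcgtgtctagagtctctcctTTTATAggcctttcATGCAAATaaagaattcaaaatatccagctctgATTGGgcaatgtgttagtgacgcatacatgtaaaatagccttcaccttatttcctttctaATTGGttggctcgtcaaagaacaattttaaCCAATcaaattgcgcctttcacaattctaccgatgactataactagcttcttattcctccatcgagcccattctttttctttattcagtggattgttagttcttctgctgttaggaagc
H2AC11 and H2AC8 both hold an octamer, CCAAT boxes and an upstream TATAAA on the strand of the H2B partner. They differ in that H2AC11, which had a peak, has a TATAAA on its own strand from -31 to -26 counted from the gene start and 4 CCAAT boxes, and H2AC8, which had none, has no TATAAA on its own strand and 3 CCAAT boxes. H2AC15, whose peak ranked highest of the set, has 3 CCAAT boxes and no TATAAA or octamer in this window. H4C8 (chr6:26285485-26285784, minus strand) was called in 15 libraries and H4C6 (chr6:26240143-26240442, plus strand) in 0.
H4C8: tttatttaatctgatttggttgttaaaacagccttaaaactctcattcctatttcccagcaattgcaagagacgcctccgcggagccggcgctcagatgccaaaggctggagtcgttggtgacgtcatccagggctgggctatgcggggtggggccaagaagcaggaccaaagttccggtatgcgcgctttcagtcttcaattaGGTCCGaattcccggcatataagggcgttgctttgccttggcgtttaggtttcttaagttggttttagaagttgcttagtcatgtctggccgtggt
H4C6: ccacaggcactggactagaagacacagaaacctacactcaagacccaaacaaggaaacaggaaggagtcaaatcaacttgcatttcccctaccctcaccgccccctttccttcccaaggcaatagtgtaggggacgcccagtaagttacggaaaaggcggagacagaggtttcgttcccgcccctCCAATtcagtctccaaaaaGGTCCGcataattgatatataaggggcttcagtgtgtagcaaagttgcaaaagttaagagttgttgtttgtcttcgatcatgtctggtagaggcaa
Both carry GGTCCG at the same place, from -46 to -41 counted from the gene start; H4C6 also has a CCAAT box from -65 to -61, and H4C8 has none. H4C14 (chr1:149832407-149832706, plus strand), H3C14 (chr1:149841159-149841458, minus strand) and H2AC18 (chr1:149842701-149843000, minus strand) stand for the duplicated part of the chromosome 1 cluster.
H4C14: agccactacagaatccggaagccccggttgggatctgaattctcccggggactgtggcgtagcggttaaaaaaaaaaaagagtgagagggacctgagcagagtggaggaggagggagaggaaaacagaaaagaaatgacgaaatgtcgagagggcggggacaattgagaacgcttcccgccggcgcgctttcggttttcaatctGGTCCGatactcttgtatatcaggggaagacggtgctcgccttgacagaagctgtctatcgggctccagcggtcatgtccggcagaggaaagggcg
H3C14: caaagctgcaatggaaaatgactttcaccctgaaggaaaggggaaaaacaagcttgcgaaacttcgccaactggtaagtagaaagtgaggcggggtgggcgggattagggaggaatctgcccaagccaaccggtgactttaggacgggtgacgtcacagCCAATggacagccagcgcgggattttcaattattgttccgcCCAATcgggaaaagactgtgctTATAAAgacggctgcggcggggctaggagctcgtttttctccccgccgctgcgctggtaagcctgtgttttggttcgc
H2AC18: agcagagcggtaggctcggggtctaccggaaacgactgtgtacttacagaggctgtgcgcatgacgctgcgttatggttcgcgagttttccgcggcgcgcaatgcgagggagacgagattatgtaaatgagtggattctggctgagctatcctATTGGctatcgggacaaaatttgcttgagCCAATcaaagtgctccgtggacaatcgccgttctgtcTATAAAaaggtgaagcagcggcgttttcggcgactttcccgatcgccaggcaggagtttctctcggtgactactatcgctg
H4C15 matched H4C14, H3C15 matched H3C14 and H2AC19 matched H2AC18 at 100% of aligned promoter bases.

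On chromosomes 6 and 1 together, 41 of 68 histone gene starts (60.3%) carried a peak in every library, near the share of all protein-coding genes. Of the 74 genes, 43 (58.1%) had a peak within 1 kb of the start in all 15 libraries, 12 in 1 to 14 libraries and 19 in none, and 10559 of 19974 protein-coding genes (52.9%) had one in all 15. For 7 of the 74 genes no strand was listed and a peak at either end counted. Among genes with a listed start, 38 of 67 histone genes were called in all 15 libraries, and 54.8% of all protein-coding genes. Without the 3 libraries that stood apart (replicate 3 of Lgk974 24 h, of DMSO 24 h and of Lgk974 48 h), 49 starts were called in every remaining library. These 3 shared the fewest regions with the other libraries. Their mean Jaccard index (shared regions over regions called in either library) was 0.513, 0.376 and 0.478. The calls were 35 of 55 genes on chromosome 6, 6 of 13 on chromosome 1 and 2 of 6 elsewhere. By family on chromosomes 6 and 1, 13 of 17 H2A genes, 13 of 18 H2B genes, 6 of 13 H3 genes, 6 of 14 H4 genes and 3 of 6 H1 genes were called in all libraries.

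The strongest start peaks belonged to H2A and H2B genes. Peak strength is given as the percentile of a peak's deposited −log10 q within its own list, where 100 is the strongest; these are the authors' values and describe ranks within a list only. The single peak shared by H2AC15 and H2BC15 lay at percentile 90.6 to 95.2 (median 93.0) in the 7 Lgk974 libraries and 79.9 to 96.7 (median 94.7) in the 8 DMSO libraries. H2BC12 lay at 84.1 to 97.5 (median 93.3) with Lgk974 and 83.2 to 97.2 (median 94.5) with DMSO. On chromosome 1, the pair H2AC25 and H2BC26 lay at 90.01 to 94.7 (median 92.3) with Lgk974 and 86.5 to 92.2 (median 89.2) with DMSO. The Lgk974 and DMSO ranges overlapped at all 3 of these starts.

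Other families sat lower when measured at the peak nearest the start. Among genes with a listed start, the highest H4 start was H4C8, at 78.8 to 93.3 (median 87.8) with Lgk974 and 87.4 to 93.4 (median 89.7) with DMSO. H4C4 followed, with a median of 80.3 with Lgk974 and 81.0 with DMSO. H4C3, which has no listed start, lay in a region called in all 15 libraries at a median percentile of 82.4. Such region values take the strongest peak anywhere in the region, so they cannot be ranked against values at listed starts. The highest H3 genes with a listed start were H3C1, with a median of 76.5 with Lgk974 and 71.9 with DMSO, and H3C10, with 71.6 with Lgk974 and 68.0 with DMSO, and the region that holds H3C11, whose start is not listed, had a median of 73.0 over all 15. Among linker histones, H1-2 had a median of 61.6 with Lgk974 and 63.1 with DMSO, and H1-3 59.3 with Lgk974 and 66.7 with DMSO. By the region value, H1-2 had a median of 87.1 over all 15 libraries. Within each list, the median histone start peak lay at percentile 63.5 to 81.3, and the median start peak of all protein-coding genes at 74.8 to 88.9 in the same lists. Histone start peaks were thus common but not among the strongest: 2.27% to 22.2% of them lay above percentile 90 of their list, against 22.6% to 47.1% of start peaks of all protein-coding genes.

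**Figure D1:**
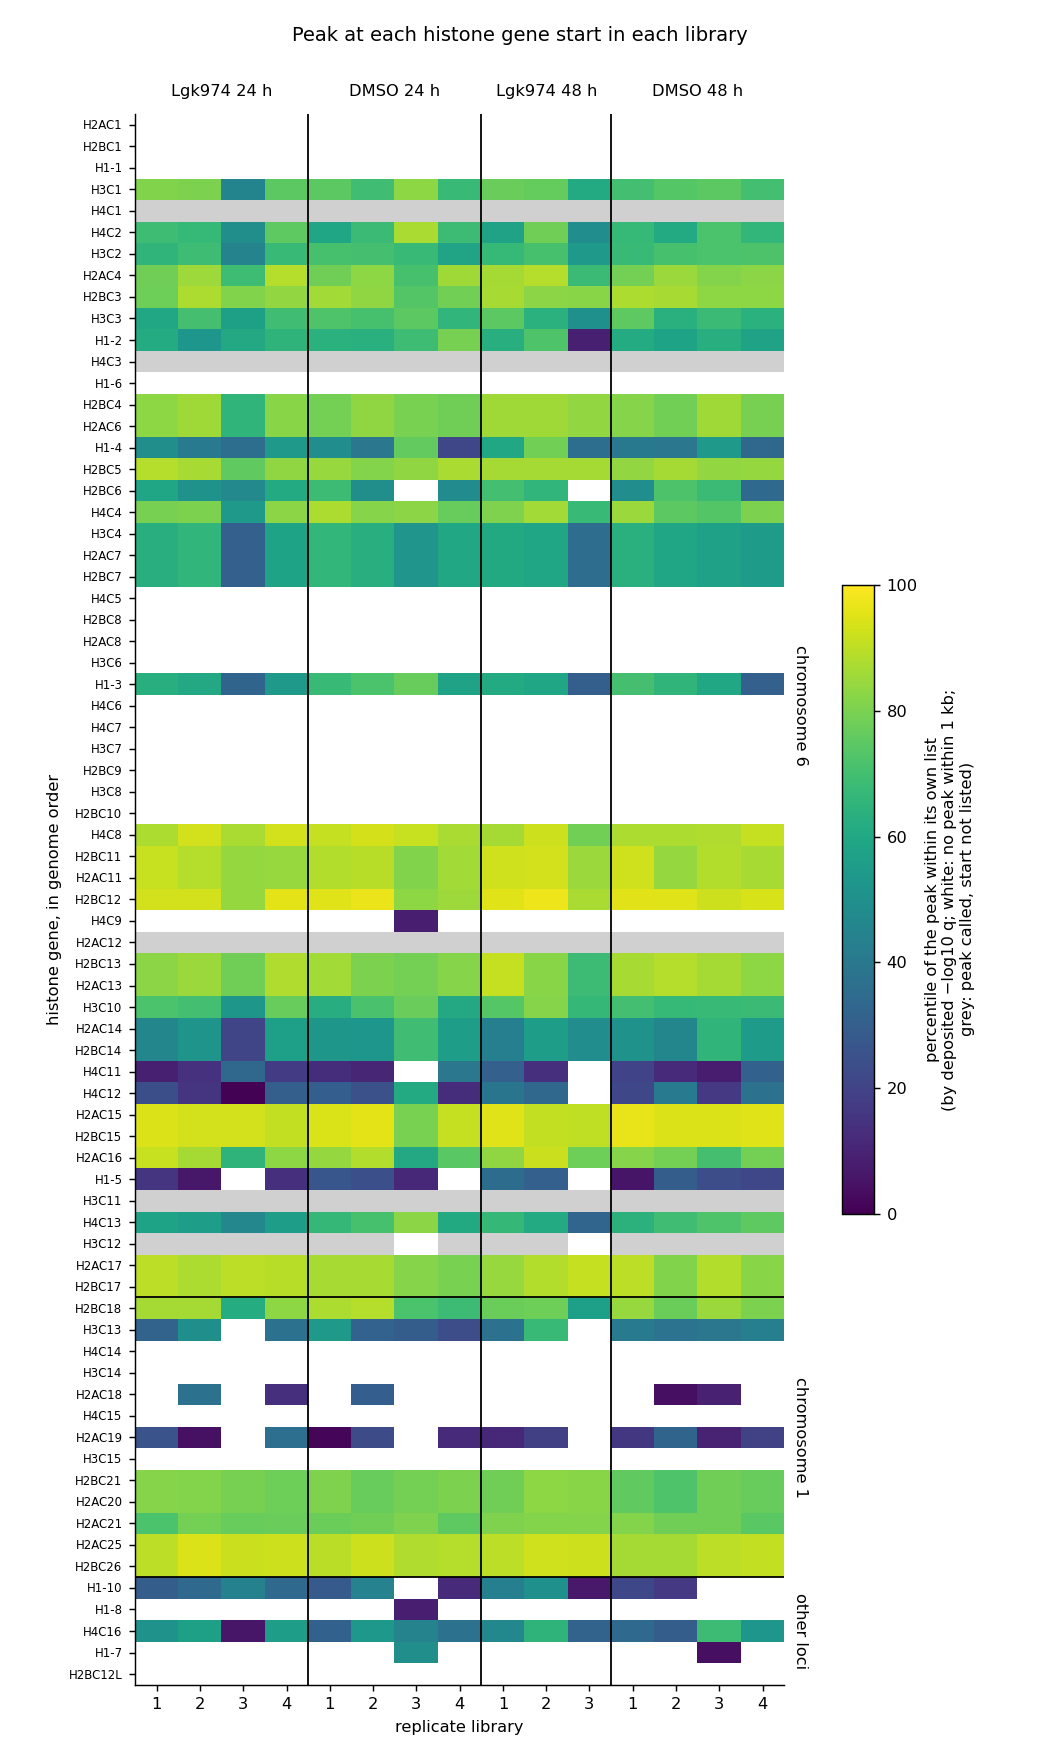
Peak at the start of histone genes (rows, in genome order) in each of the 15 libraries (columns, by group and replicate); colour gives the percentile of the peak within its own list, white no peak within 1 kb, and grey a peak at a gene whose start is not listed. The rows from H4C5 to H2BC10 are white in all libraries except at H1-3, and H2AC15 and H2BC15 have the highest median percentile, 94.1.

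Divergent H2A and H2B genes shared 1 open region. There were 11 pairs whose starts faced away from each other over 194 to 248 bp (median 236). In 9 pairs both starts were called in all 15 libraries, and H2AC1 with H2BC1 and H2BC8 with H2AC8 were called in none. That both starts of a pair get the same call is nearly fixed by the measure, because a peak within 1 kb of either mostly lies within 1 kb of both. A shared peak is also counted for each of its genes in the family counts and percentiles. Over the 9 pairs and 15 libraries, 129 of 135 cases had 1 peak spanning both starts, and in 122 the summit fell between them. The summit of histone start peaks lay at a median of 77 bp upstream of the start (quartiles -127.5 and -7.25, 38 genes), and that of all 8670 protein-coding starts called in every library at the same median of 77 bp upstream. The spread differed in size: 97.4% of the histone summits lay within 250 bp of the start, and 77.3% of all.

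**Figure D2:**
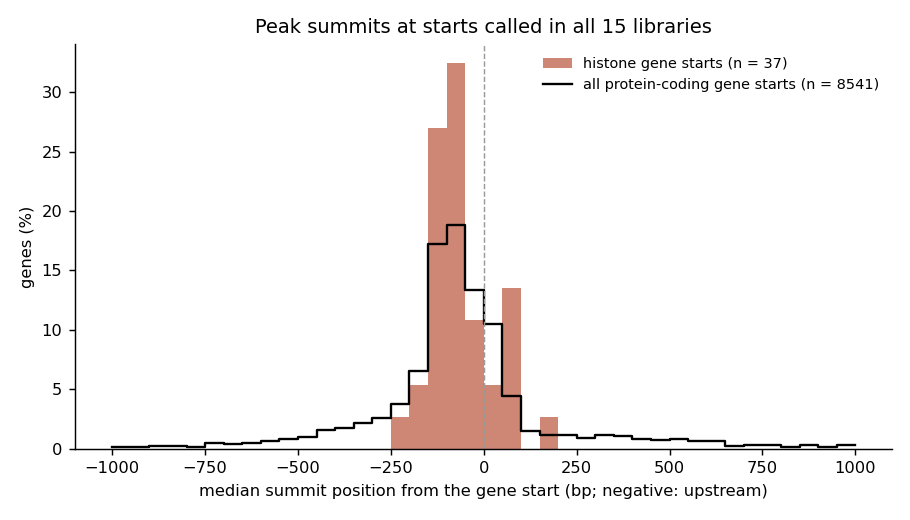
Median position of the peak summit from the gene start, in bp, for starts called in all 15 libraries; bars give histone genes and the line all protein-coding genes, each as a percentage of the genes within 1 kb. The histone summits gather around -77 bp, and the line has longer tails on both sides.

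The promoter elements followed the family. CCAAT was found in all 16 H2A, 18 H2B, 11 H3 and 6 H1 promoters of the clusters that are listed, and in 3 of 12 H4 promoters. The octamer was found in 11 of 16 H2A and 14 of 18 H2B promoters, in 1 of 11 H3 promoters, and in 0 of 12 H4 and 0 of 6 H1 promoters. GGTCCG was found in 11 of 12 H4 promoters. Over all 67 listed histone promoters against all 15812 listed protein-coding promoters, TATAAA was present in 64.2% against 9.64%, CCAAT in 83.6% against 36.3%, the octamer in 38.8% against 1.70% and GGTCCG in 23.9% against 14.5%. The E2F-like words TTTCCCGC or TTTGGCGC were present in 1.49% against 3.07%. The 37 cluster promoters called in 15 libraries and the 18 called in 0 were also set side by side, with no test. TATAAA was present in 67.6% of those called in 15 and 55.6% of those called in 0, CCAAT in 91.9% and 77.8%, and the octamer in 51.4% and 33.3%. GGTCCG went the other way, with 16.2% of those called in 15 and 27.8% of those called in 0, and the E2F-like words were in none of the promoters called in 15 and in 5.56% of those called in 0. The family mix of the 2 groups differs: 2 of 17 H2A genes and 5 of 14 H4 genes of the clusters were called in 0. Element and family therefore cannot be told apart in this contrast. Identical copies, such as H4C14 and H4C15, are also counted separately.

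On chromosome 6, the starts without a peak lay in runs of neighbouring genes. H4C5, H2BC8, H2AC8 and H3C6 had no start peak in any library over 22.9 kb, and H4C6, H4C7, H3C7, H2BC9, H3C8 and H2BC10 none over 33.0 kb (chr6:26240393-26273412). H1-3, which lies between these runs, was called in all 15 libraries. The longer run was not without peaks: 3 regions between its genes, at chr6:26243015-26244219, chr6:26257098-26257786 and chr6:26268836-26269494, were called in all 15 libraries at median percentiles of 92.9, 81.7 and 82.9. The first lies 2222 bp from H4C6, the second overlaps the long noncoding RNA LOC105374986, and the third lies 1424 bp from H3C8. H2AC1 and H2BC1, which encode testis histones, H1-6, the testis linker histone, and H1-1 also had no start peak, nor did H2BC12L on chromosome 21. In the smaller chromosome 6 loci, H2BC11 to H2AC12 (5 genes over 15.2 kb) and H2BC13 to H2BC17 (16 genes over 86.4 kb), no gene was without a call; their starts were called in all libraries for 4 of 5 and 12 of 16 genes. A start with no listed peak can be open below the threshold of the list, so closed chromatin was not shown.

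**Figure D3:**
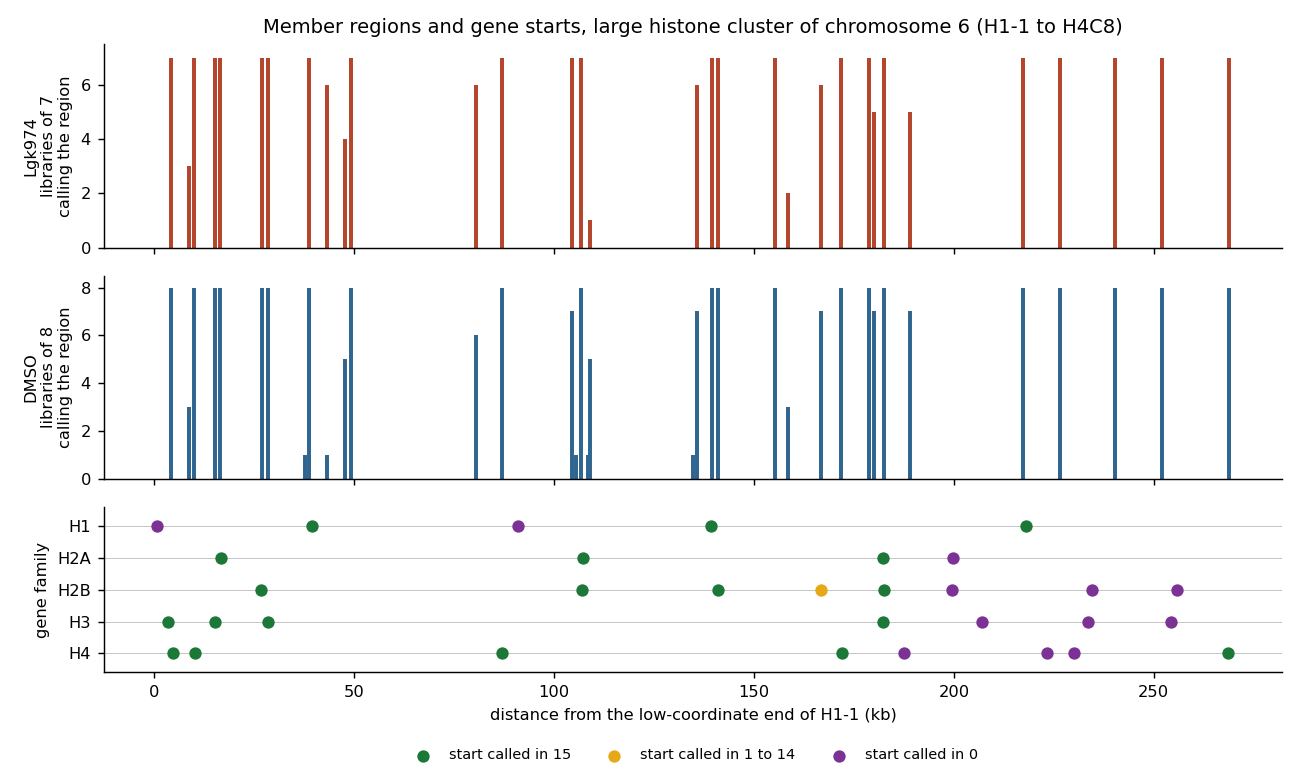
Large chromosome 6 cluster from H1-1 to H4C8, in kb from the low-coordinate end of H1-1. Upper panels give the number of Lgk974 libraries (of 7) and DMSO libraries (of 8) that call each region; the lower panel gives gene starts by family, coloured by the number of libraries with a peak. The starts called in 0 libraries gather in the right part, where 3 regions between genes were called in all 15.

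On chromosome 1, the missing starts were those with identical copies. Only 5 of 2211 promoter pairs were over 95% identical. H4C14 and H4C15, and H3C14 and H3C15, were called in 0 libraries each. H2AC18 was called in 5 libraries, 2 Lgk974 and 3 DMSO, and H2AC19 in 12, 5 Lgk974 and 7 DMSO. These calls came through a region 644 bp and 724 bp from the start, with none within 200 bp. The region near H2AC18 was itself called in all 15 libraries, at a median percentile of 62.1. The 5 calls of H2AC18 thus count only the libraries in which a peak reached within 1 kb of its start. On chromosome 6, H4C11 and H4C12, 98.3% identical, were called in 13 libraries (6 Lgk974, 7 DMSO) and 14 (6 Lgk974, 8 DMSO), but within 200 bp in 7 and 1, and at median percentiles of 14.3 and 27.4. The remaining pair, H3C4 and H2AC7, shares 1 listed start and so 1 promoter, and was called in all 15. The next pair, H2AC13 and H2AC14, was 84% identical and both were called in all 15. How reads that match both copies were treated is not given in the sources used here, and the part of read assignment in these calls was not tested.

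Among the other genes with partial calls, the 13 calls of H2BC6 were 6 Lgk974 and 7 DMSO libraries, those of H3C12 were 6 Lgk974 and 7 DMSO, and those of H3C13 were 5 Lgk974 and 8 DMSO. H1-5 was called in 5 Lgk974 and 7 DMSO libraries. H1-10 was called in all 7 Lgk974 and in 5 of 8 DMSO libraries. H4C9 and H1-8 were called in 1 DMSO library each and H1-7 in 2. The misses gathered in few libraries: of the 8 starts called in 12 to 14 libraries, replicate 3 of Lgk974 48 h missed 7, replicate 3 of DMSO 24 h missed 5 and replicate 3 of Lgk974 24 h missed 3.

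The number of member regions called per library differed little between treatments beside its spread. At 24 h, Lgk974 libraries called 76, 78, 50 and 74 of the 102 regions (69.5 ± 13.1, SD, n = 4), and DMSO libraries 81, 78, 68 and 75 (75.5 ± 5.57, SD, n = 4). At 48 h, Lgk974 libraries called 75, 79 and 51 (68.3 ± 15.1, SD, n = 3), and DMSO libraries 71, 81, 72 and 66 (72.5 ± 6.24, SD, n = 4). The mean share of members called was 68.1% with Lgk974 and 74.0% with DMSO at 24 h, and 67.0% and 71.1% at 48 h. Over all merged regions, the mean shares were 37.1% and 44.7% at 24 h, and 40.7% and 39.6% at 48 h. The groups overlapped at both times, and the low values of 50 and 51 came from the shortest lists, of 53610 and 57708 peaks. Replicate 3 of DMSO 24 h called 45 of the 64 chromosome 6 regions, the fewest of the DMSO libraries, from the longest list of all, 127886 peaks. Histone gene starts called ranged from 48 to 52 of 74 with Lgk974 and 49 to 52 with DMSO at 24 h, and from 44 to 51 with Lgk974 and 50 to 52 with DMSO at 48 h. Their mean shares were 68.6% with Lgk974 and 68.2% with DMSO at 24 h, and 65.8% and 69.3% at 48 h. Over all protein-coding starts, the mean shares were 63.1% and 66.6% at 24 h, and 63.8% and 63.9% at 48 h.

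**Figure D4:**
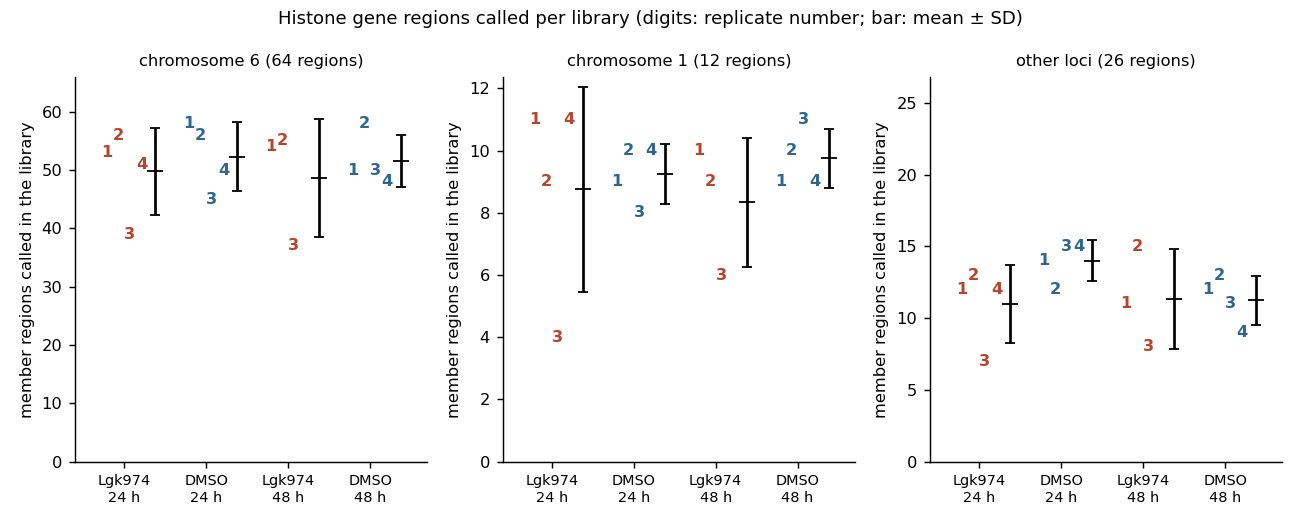
Member regions called in each library, by locus and group; digits are replicate numbers and bars the group mean ± SD. Replicate 3 is the lowest of both Lgk974 groups in all 3 panels, and the ranges of Lgk974 and DMSO overlap at both times.

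Calling of the histone regions was then compared between Lgk974 and DMSO, the question of the study's design. Of the 102 regions, 42 (41.2%) were called in all 15 libraries and so did not vary, against 27.1% of the 64038 regions within 10 kb of any protein-coding gene; on chromosome 6 this share was 51.6%. Among the members, regions that cover a histone gene start were the most constant, 30 of 36 being called everywhere. The share for regions that cover the start of any protein-coding gene was not measured, so this was not shown to be particular to histone genes. The 32 members called in 3 to 12 libraries were tested, 19 of them farther than 1 kb from any histone gene end. None passed over both times (two-sided exact permutation test within time, Benjamini-Hochberg over 60356 regions; smallest adjusted p of a member 0.543). At an unadjusted exact p under 0.05, 4 of 32 members (12.5%) differed, 2 of them higher and 2 lower in calling with Lgk974, where 6.03% of all tested regions did (2.96% higher, 3.08% lower). Of the 32, Lgk974 libraries had the higher share of calls at 11 (34.4%) and the lower at 21 (65.6%), and of all tested regions they had the higher at 45.3% and the lower at 53.8%. Both of the shortest lists are Lgk974 libraries, and their part in this split was not tested.

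None of the 4 regions covers a histone gene start, and all were low in their lists, at median percentiles of 20.3 to 40.2. A region inside H2BC21 and 582 bp from its start (chr1:149885294-149886100) had a peak in 2 of 7 libraries with Lgk974 and in 8 of 8 with DMSO (exact p = 0.00612). The 2 Lgk974 calls were replicates 1 and 4 at 24 h, and its median percentile was 25.9. The start of H2BC21 itself, which encodes H2B, was called in all 15. A region 4747 bp from H2AC25 (chr1:228452102-228452617) was called in 6 of 7 Lgk974 libraries, all but replicate 3 at 24 h, and in 1 of 8 DMSO libraries, replicate 3 at 24 h (exact p = 0.00857). A region 3433 bp from H1-2 (chr6:26059903-26060352) had a peak in 6 of 7 libraries with Lgk974 and in 1 of 8 with DMSO (exact p = 0.0102). A region 6148 bp from H4C16 (chr12:14777279-14777659) had a peak in 0 of 7 libraries with Lgk974 and in 6 of 8 with DMSO (exact p = 0.0102); it overlaps H2AJ, a replication-independent H2A variant gene. All 4 had an adjusted p of 0.543. With equally long lists, the 4 regions were called in 1 to 2 libraries in all and could not be tested. With labels exchanged only between same-numbered libraries, no member had an unadjusted exact p under 0.05. Pairs whose libraries agree carry no weight in that test. For the regions in H2BC21 and near H1-2 and H4C16, the lowest exact p their calls allowed was therefore 0.0625, so it could not decide on them.

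**Figure D5:**
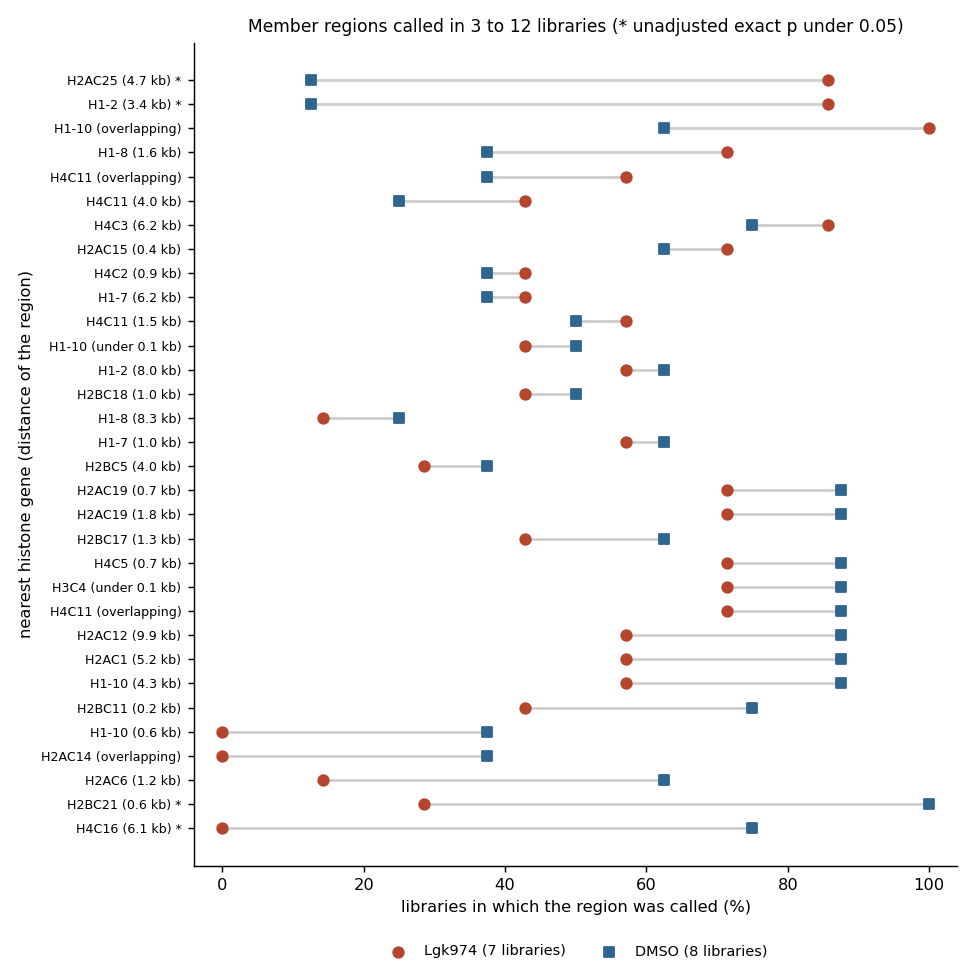
Share of the 7 Lgk974 libraries (circles) and 8 DMSO libraries (squares) that called each of the 32 tested member regions, named by the nearest histone gene and the distance to it. The 4 regions with an asterisk have an unadjusted exact p under 0.05, and none passes after adjustment.

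The single times gave no call either, but could hardly have given one. The smallest p that either time allows passes adjustment only if most of all tested regions reach it. At 24 h, 0 of 30 tested members had an unadjusted exact p under 0.05, where 0.474% of all tested regions did, and the smallest p this design allows is 0.0286. At 48 h, 2 of 23 did, where 2.14% of all tested regions did: the region in H2BC21, found in 0 of 3 libraries with Lgk974 and 4 of 4 with DMSO, and the region near H2AC25, found in 3 of 3 with Lgk974 and 0 of 4 with DMSO (exact p = 0.0286 and adjusted p = 0.737 for both). Leaving out any 1 library at 48 h removes this call, because the smallest p then exceeds 0.05. Between 48 h and 24 h within treatment, 0 of 32 members had an unadjusted exact p under 0.05, where 1.75% of all tested regions did, and 0 passed adjustment. For gene starts, 4 of the 74 were called in 3 to 12 libraries; H2AC18, H2AC19, H1-5 and H1-10 had unadjusted exact p-values of 0.745, 0.459, 0.459 and 0.214, and 3.72% of the 1883 protein-coding starts tested were under 0.05. The largest of these differences was at H1-10, with 7 of 7 libraries with Lgk974 and 5 of 8 with DMSO.

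The genes that make and handle histone messages had open starts throughout. All but 1 of the 30 genes for transcription and 3′ processing of histone messages had a start peak in 15 libraries, where 52.9% of all protein-coding genes did, including NPAT, HINFP, the activator of H4 genes, CASP8AP2, a partner of NPAT, SLBP and LSM11 of the U7 particle. The exception was CCNE1, which encodes cyclin E1, called in 6 of 7 libraries with Lgk974 and 8 of 8 with DMSO. All 23 entries of the histone chaperone list, among them CHAF1A, ASF1B and NASP, were called in 15. The entry SPT2 was read as SPTLC2, a different gene that is not a histone chaperone, so the start of SPT2 itself was not measured. Of 10 replication-independent variants, 9 were called in 15, and H3-5, an H3.3 copy, in 0. No gene measured for these 3 lists was called in 3 to 12 libraries, so none could be tested between treatments.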

How the data were processed

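ATAC-seq peak lists of 15 HPAF-II libraries, 1 per library, were used as deposited. Per the submitters' processing notes, tools included Trimmomatic, Bowtie2, Picard, SAMtools, bedtools and MACS2, on hg38. Not given in the sources used here were tool versions, settings and any read shift for the transposase. The authors' peak caller gave each peak a score, a fold (ratio) over background and −log10 p and −log10 q; these deposited values ranked or filtered peaks within a list only. KATO III cells are named beside HPAF-II in the growth protocol, but every library is labelled HPAF-II.

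Peaks on chromosomes 1 to 22 and X were merged into regions (overlap of 1 bp); 1138 peaks elsewhere were left out, and 1 damaged line was read as chromosome 1. Regions called in 3 to 12 libraries were tested by two-sided exact permutation of labels within time (2450 assignments; 70 at 24 h and 35 at 48 h), with Benjamini-Hochberg adjustment over all of them at 0.05. The test was checked on simulated calls. Gene positions and promoters came from RefSeq on GRCh38.p14; 67 of 74 histone genes had a listed start; 1 gene of the rule and 1 marker gene are counted but not reported by name here. Members, gene lists and the rule for named genes were chosen with earlier results of these data known: named were genes called in 0 to 14 libraries, the highest ranks per family, the regions with the smallest p per cluster, promoter pairs over 95% identical, and regulators called in fewer than 15 libraries. Deviations of same-numbered Lgk974 and DMSO libraries at 24 h correlated at r = 0.102 to 0.142 over regions (median 0.127). Those of different-numbered libraries correlated at r = -0.157 to 0.151 (median -0.0675). The ranges overlap, so the numbers may pair the libraries at that time, and the main test did not use them. Between DMSO 48 h and DMSO 24 h, same-numbered libraries correlated at r = 0.124 to 0.197 (median 0.154). Different-numbered ones correlated at r = -0.202 to 0.186 (median -0.125), and 1 of 4 libraries correlated best with its own number. The numbers may thus also pair libraries across times, and the main test of 48 h against 24 h did not use them. Alternatives were a −log10 q of at least 5, equal lists, 50% overlap, summit windows, other distances, left-out libraries and a replicate block. Python 3.11.15, numpy 2.4.6, pandas 2.3.3 and scipy 1.17.1 were used.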

Additional observations from a re-analysis of the deposited data

Results flagged for a closer look

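Of 21 combinations of measure and group examined, 4 were flagged, all for replicate 3 of Lgk974 at 24 h. That library stood below the other 3 of its group in each. It called 50 of the 102 histone regions and 7 of the 26 regions outside the clusters, its histone start peaks had a median percentile of 63.5, and its list was the shortest, with 53610 peaks. The gap to the nearest library exceeded Dixon's 95% critical value for 4 samples in each case, a level that chance exceeds in about 1 in 20 groups. The 4 measures come from the same list and are not independent. Lgk974 at 48 h, with 3 libraries, was not examined, and its replicate 3 called 51 histone regions from a list of 57708 peaks.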

How the results depend on the processing

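No histone region or gene start passed adjustment under any alternative run, including each of the 15 libraries left out, so the count stayed at 0. With the replicate block, 0 of 28 member regions over both times had an adjusted p under 0.05 and 0 an unadjusted one; the smallest p that block allows is 0.0156 over both times and 0.125 at 24 h. The 4 regions then had exact p-values of 0.0625 to 0.0781. For those in H2BC21 and near H1-2 and H4C16, 0.0625 was the lowest exact p their calls allowed under the block. At 48 h same-numbered libraries correlated at r = -0.032 to 0.146, and different-numbered ones at r = -0.128 to 0.0990. There 1 of 3 Lgk974 libraries correlated best with its own number (3 of 4 at 24 h), so pairing by number was not shown at 48 h. Over both times, the unadjusted count was 4 of 32 members, against 3641 of all 60356 tested regions. With equal lists it was 2 of 15, against 3806 of 26349. With 50% overlap it was 6 of 48, against 4276 of 71760. With windows around summits it was 6 of 44, against 3728 of 63471, and with a stricter q 5 of 32, against 3373 of 54325. The member count was 5 without the 3 libraries that stood apart and 4 to 5 with 1 library left out. At 24 h it was 0 to 1 with 1 library left out, and at 48 h it was 0 with equal lists, with 50% overlap and without the 3 libraries that stood apart. None of the 4 regions changed direction. The mean number of regions called per library was 71.7, and 49.1 with equal lists and 61.3 with 50% overlap. The number of member regions was 102, and 61 within 1 kb of a gene end. The number of starts called in every library was 43, and 36 to 50 under the other settings. Depth is unknown, so a region without a call may lie under the threshold of its list, and rank within a list does not measure a change between lists.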
